A study of Sus scrofa with 6 samples.

Results

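The genes of the cytosolic ribosomal proteins were examined in ovarian follicles of 2 pig breeds, Chinese Taihu and Large White, shortly before ovulation. A probe set was taken as a member if the only gene symbol in its annotation was that of an RPL, RPS, RPLP or RPSA gene and its signal was above 50 on at least 3 of the 6 arrays. This gave 86 members, representing 59 genes, of 19196 probe sets tested. A further 5 probe sets carried such a symbol but stayed under the signal limit, and 8 were set aside because they carried several symbols. Of 77 ribosomal protein genes of the large subunit, the small subunit and the stalk, 58 had a member, namely 31 of 43 for the large subunit, 24 of 31 for the small subunit and 3 of 3 for the stalk. The other member gene was the paralog RPS27L. The 19 genes without a member were not analysed here.

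Chinese Taihu is named Chinese Erhualian in the labels and is known for its large litters, while Large White is a Western breed. There were 3 multiparous sows of each breed, each breed kept on a farm of its own, so breed and farm cannot be told apart. Every sow received 1000 IU PMSG, then 500 IU hCG after 80 h, and was killed 30 to 38 h after hCG. RNA from follicles over 5 mm of 1 sow was hybridized to each Affymetrix porcine array, and the number of arrays limits the precision. Because whole follicles were taken, fewer cells of a type and less RNA per cell cannot be told apart.

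The cytosolic ribosome reads messenger RNA on its small subunit and joins amino acids on its large subunit, and the stalk of the large subunit recruits the factors that drive elongation. Apart from the stalk proteins, most ribosomal proteins are present in a single copy per ribosome, and their messenger RNAs are abundant in nearly all cells. These messenger RNAs begin with a terminal oligopyrimidine (TOP) motif through which the mTOR kinase controls their translation, and several of the proteins have further roles away from the ribosome. In the follicle, the gonadotropin surge turns granulosa and theca cells towards the luteal state, which involves growth and hormone synthesis.

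One array stood apart from the rest. Chinese Taihu sow 1 correlated with the other arrays at r = 0.83 to 0.89 over all tested probe sets, while the other 5 arrays correlated with each other at 0.91 to 0.97. On that array the 12 tested genes of a surface epithelium marker list were all highest, with a summed signal of 52441, against 2267 and 2960 in the other Chinese Taihu sows and 2249 to 9565 in Large White sows. The 10 tested granulosa markers summed to 2075 in Chinese Taihu sow 1, whereas the other 5 sows had sums of 11817 to 18213. The leukocyte list, 16 tested genes, was at 5127 to 7858 in Chinese Taihu sows and reached 23231 in Large White sow 2, against 4625 and 5521 in the other Large White sows. The 9 theca and steroidogenic markers spanned 2578 to 59552 in Chinese Taihu sows and 15812 to 54672 in Large White sows. For the members, the SD, the counts by unadjusted p and the signs of the differences are therefore given with and without Chinese Taihu sow 1. The counts of overlap and the results of other gene lists are given with it only.

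Most ribosomal protein probe sets had high signals that were nearly level across the 6 sows, and the dimmer ones varied more (the plot of member signals by sow). The log2 signals of the 86 members had a median SD of 0.08 over the 6 arrays, against 0.31 for all tested probe sets, and the corresponding medians without Chinese Taihu sow 1 were 0.08 and 0.27. Most tested probe sets were under 1000, whereas 58 members were above 5000. The median SD was 0.06 for members and 0.23 for other probe sets above 5000, 0.22 for members and 0.36 for others between 1000 and 5000, and 0.26 for members and 0.30 for others under 1000. The highest array exceeded the lowest by a median of 1.16-fold for the members and 1.75-fold for all tested probe sets. The members took 5.68%, 5.28% and 5.71% of the summed signal in Chinese Taihu sows 1 to 3, against 5.48%, 5.08% and 5.61% in Large White sows 1 to 3. These shares overlapped between the breeds. A signal depends on the probes as well as on the transcript, so signals of different probe sets are given here without ranking the genes by expression.

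**Figure D1:**
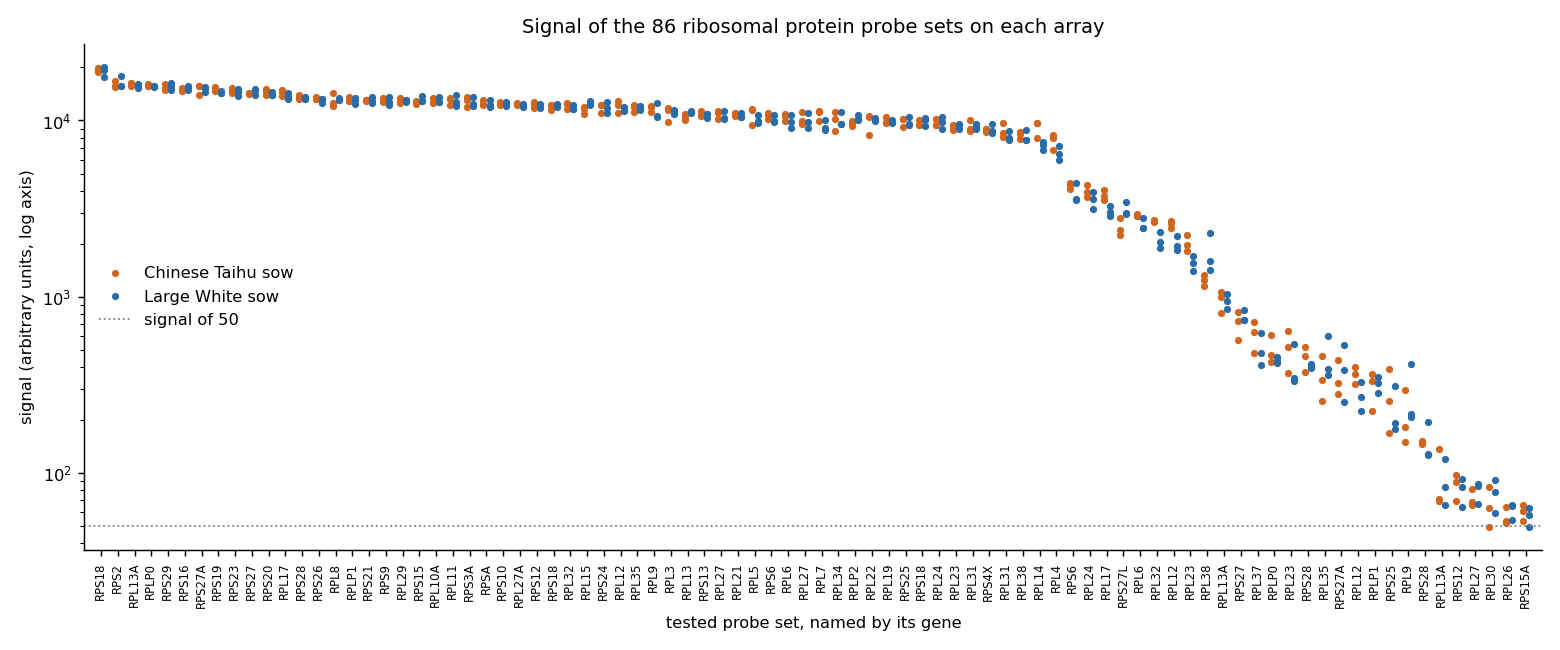
Signal of each of the 86 ribosomal protein probe sets (arbitrary units, log axis) in 3 Chinese Taihu sows (orange) and 3 Large White sows (blue), with 1 point per sow and the limit of 50 as a dotted line. 58 probe sets lie above 5000, where the 6 points nearly coincide, and the points of the 19 probe sets under 1000 lie further apart.

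Between the breeds, no ribosomal protein probe set passed the adjusted test (limma, Benjamini-Hochberg adjustment over all tested probe sets), in which 0% of tested probe sets were higher and 0.0208% were lower in Chinese Taihu follicles. The smallest adjusted p among the members was 0.993. At an unadjusted p of at most 0.05, 2 of 86 members were higher and 0 were lower in Chinese Taihu follicles, where 1.56% of all tested probe sets were higher and 2.30% were lower. Both of the 2 were large-subunit genes, RPL14 and RPL32, and neither was past this threshold without Chinese Taihu sow 1, when 0 members were. Signals of the breeds did not overlap for 7 members that were higher and 6 that were lower in Chinese Taihu follicles (8.14% and 6.98%), against 3.98% and 5.12% of all tested probe sets. With array weights in the fit, 6 members were higher and 1 was lower at the unadjusted threshold, against 2.75% and 4.04% of all tested probe sets. With the methods' t-test, 6 were higher and 3 were lower, against 1.81% and 2.59%.

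The difference of log2 signals, taken as Chinese Taihu minus Large White, had a median of 0.02 over the 86 members, with a range of -0.48 to 0.41, and the median over all tested probe sets was 0.00. It was above 0 for 56 of 86 members (65.1%), against 50.3% of all tested probe sets. Without Chinese Taihu sow 1 it was above 0 for 48 of 86 members, against 49.4% of all tested probe sets. Leaving out the other sows in turn gave 46 to 62 members, and no share of all tested probe sets is given for these. The means of the breeds were within 1.1-fold of each other for 63 members. The values had been normalized on an invariant set of probe sets that is not given in the sources used here, so a shift shared by that set and the ribosomal protein genes cannot be seen in them.

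**Figure D2:**
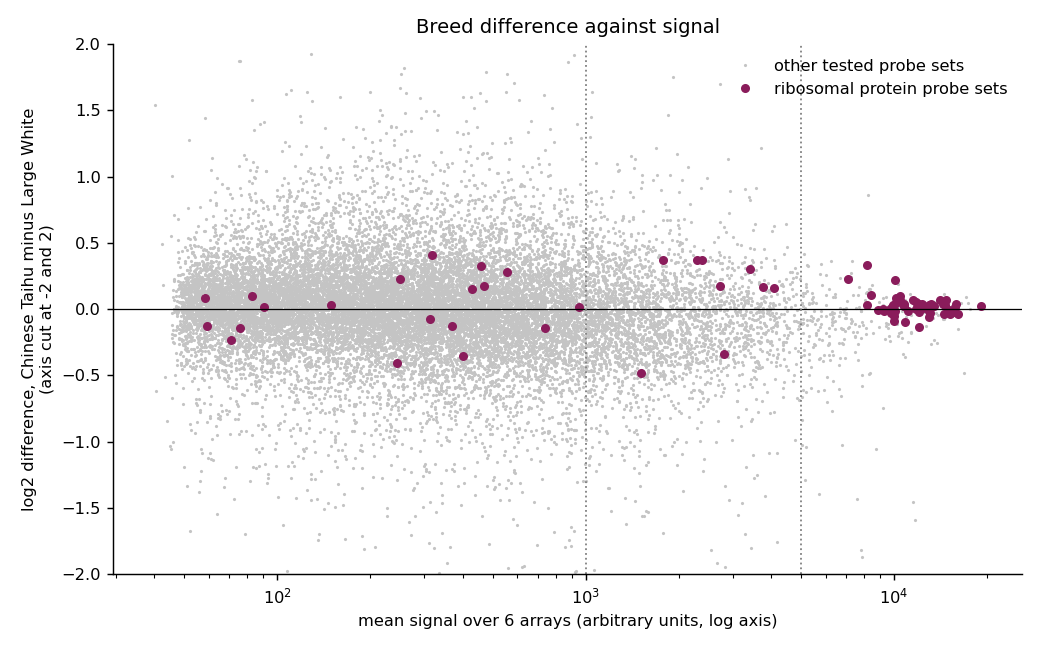
Log2 difference (Chinese Taihu minus Large White) against mean signal over the 6 arrays (log axis) for the ribosomal protein probe sets (purple) and the other tested probe sets (grey), with dotted lines at 1000 and 5000. The vertical axis is cut at -2 and 2, which leaves out 45 tested probe sets and 0 members. Members above 5000 lie close to 0, and 7 of the 9 between 1000 and 5000 lie above it.

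Breed differences were mostly small in the brightest members, but their size did not rise steadily as the signal fell. For description, the members were divided at mean signals of 1000 and 5000, limits chosen after the values were seen. The 58 members above 5000 had a median SD of 0.06 on the log2 scale, and the means of the breeds were within 1.1-fold for 55 of them. Their highest array exceeded their lowest by a median of 1.12-fold and by at most 1.42-fold. The widest 95% confidence bounds of a breed difference among these 58 were -0.35 and 0.62 on the log2 scale. The 271 other tested probe sets above 5000 had a median SD of 0.23, and their highest array exceeded their lowest by a median of 1.53-fold. At mean signals of 10000 or more, 45 members had a median SD of 0.05, and 64 other probe sets had a median SD of 0.11. There the means of the breeds were within 1.1-fold for 44 of the 45 members and 47 of the 64 others. The highest mean signal of any tested probe set was that of RPS18, at 19142, and whether differences were compressed near the top of the signal range was not tested.

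The 9 members between 1000 and 5000 had a median log2 difference of 0.18, and 7 of them were above 0. The 2762 other tested probe sets in this range had a median of -0.07. The signals of the breeds did not overlap for 7 of these 9 members, of which 5 were higher and 2 were lower in Chinese Taihu follicles, against 2.72% higher and 5.39% lower of the other probe sets in this range and 3.98% and 5.12% of all tested probe sets. The 19 members under 1000 had a median difference of 0.02 and a median SD of 0.26, and the breeds overlapped in every one of them. The means of the breeds were within 1.1-fold for 8 of these 19, and for 0 of the 9 between 1000 and 5000. These groups of members were formed after the signals were known, so the differences between them were not tested.

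Of the large-subunit genes, RPL14 had the smallest p (mean signal 8169). Its signals were 9698, 7990 and 9661 in Chinese Taihu sows, against 7268, 6833 and 7565 in Large White sows. Every Chinese Taihu sow was above every Large White sow, although Chinese Taihu sow 2 lay close to Large White sow 3. The log2 difference was 0.33 ± 0.12 (SE, n = 3 sows per breed), with a 95% interval of 0.04 to 0.62 and an adjusted p of 0.993 (limma). The unadjusted p was over 0.05 without Chinese Taihu sow 1 (difference 0.28), Chinese Taihu sow 3 (0.29), Large White sow 1 (0.34) or Large White sow 2 (0.29), and stayed under it without either of the other sows. RPL14 is a structural protein of the large subunit and was represented by 1 probe set.

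RPL32, another structural protein of the large subunit, had the next smallest p on the dimmer of its probe sets (mean signal 2387). The signals of that probe set were 2722, 2667 and 2673 in Chinese Taihu sows, against 2036, 1899 and 2323 in Large White sows. The 3 Chinese Taihu values were almost equal and lay above all Large White values. The log2 difference was 0.37 ± 0.15 (SE), with a 95% interval of 0.00 to 0.74 and an adjusted p of 0.993 (limma). The unadjusted p was over 0.05 without Chinese Taihu sow 1 (difference 0.36), Chinese Taihu sow 2 (0.38), Chinese Taihu sow 3 (0.37), Large White sow 1 (0.36) or Large White sow 2 (0.30), and stayed under it only without Large White sow 3 (0.45).

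RPL12 forms the base to which the stalk is attached. Its middle probe set (mean signal 2291) had signals of 2687, 2446 and 2609 in Chinese Taihu sows, against 1853, 1947 and 2207 in Large White sows, with no overlap. The log2 difference was 0.37 ± 0.15, with a 95% interval of -0.00 to 0.74 (adjusted p = 0.993). The dimmest RPL12 probe set (mean signal 318) differed by 0.41 ± 0.21, with an interval of -0.10 to 0.91, and there Chinese Taihu sow 3, at 318, was below Large White sow 1, at 329.

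RPL17 and RPL4 line the tunnel through which the new peptide leaves the ribosome. The dimmer RPL17 probe set (mean signal 3409) had signals of 3517, 3711 and 4057 in Chinese Taihu sows, against 3005, 2887 and 3279 in Large White sows, and the breeds did not overlap. The log2 difference was 0.30 ± 0.14, with a 95% interval of -0.04 to 0.63 (adjusted p = 0.993). RPL4 had signals of 7928, 6768 and 8288 in Chinese Taihu sows, against 6003, 6452 and 7209 in Large White sows, so that Chinese Taihu sow 2 fell within the Large White values. Its log2 difference was 0.22 ± 0.13, with an interval of -0.10 to 0.54 (adjusted p = 0.993).

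RPL23, which lies on the face of the large subunit that meets the small subunit, had signals of 1968, 1812 and 2238 in Chinese Taihu sows, against 1559, 1401 and 1704 in Large White sows on its middle probe set (mean signal 1780). The breeds did not overlap, and the log2 difference was 0.37 ± 0.17, with a 95% interval of -0.05 to 0.79 (adjusted p = 0.993). RPL7, a large-subunit protein, had signals of 11224, 9982 and 11264 in Chinese Taihu sows, against 8856, 9048 and 10043 in Large White sows. Chinese Taihu sow 2 lay just below Large White sow 3, and the log2 difference was 0.22 ± 0.10, with an interval of -0.03 to 0.47 (adjusted p = 0.993). RPL6, also of the large subunit, differed by 0.18 ± 0.14 on its dimmer probe set (mean signal 2733, 95% interval -0.16 to 0.51, adjusted p = 0.993), where signals of 2876, 2868 and 2947 in Chinese Taihu sows were above those of 2459, 2453 and 2793 in Large White sows.

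**Figure D3:**
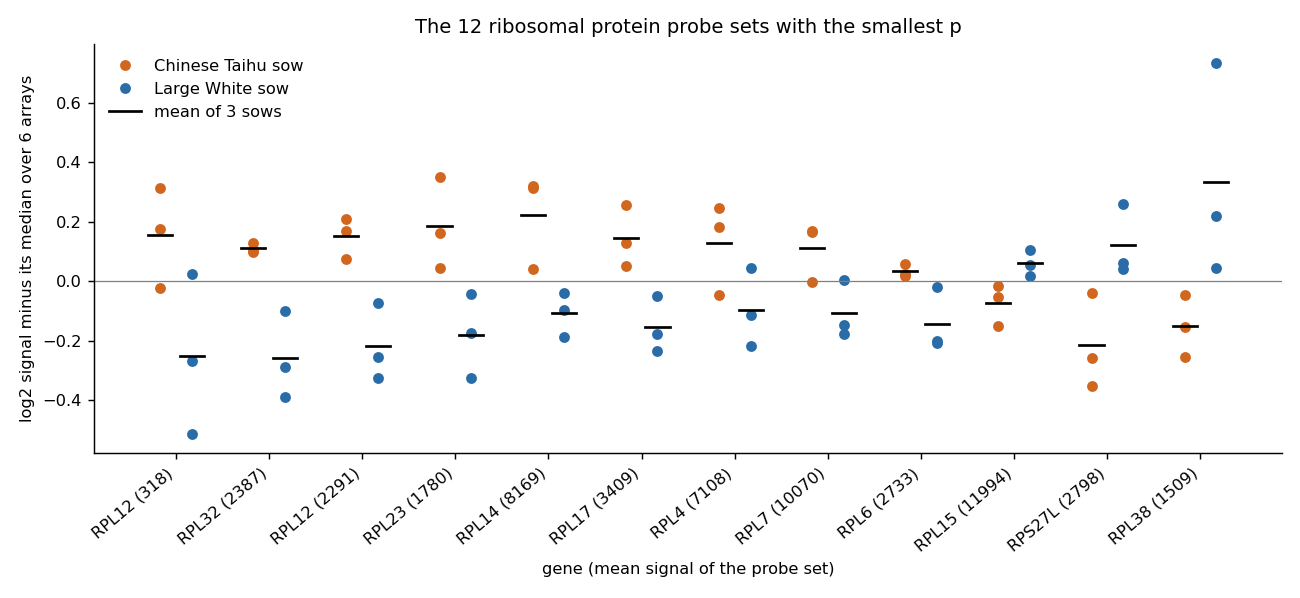
Log2 signal of each sow minus the median of the probe set over the 6 arrays, for the 12 ribosomal protein probe sets with the smallest p, with Chinese Taihu sows (orange) left of Large White sows (blue) and the mean of 3 sows as a black line. RPL14 and RPL32 are the 2 with p of at most 0.05, RPL15, RPS27L and RPL38 are lower in Chinese Taihu sows, and points of the breeds overlap for RPL4, RPL7 and the RPL12 probe set with a mean signal of 318.

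In the opposite direction, the members with the smallest p were RPL38, RPS27L and RPL15, none of which had an unadjusted p of 0.05 or less. RPL38 is a small protein of the large subunit that in mouse embryos is needed for the translation of certain Hox messenger RNAs. Its dimmer probe set (mean signal 1509) had signals of 1240, 1156 and 1336 in Chinese Taihu sows, against 1422, 2294 and 1605 in Large White sows. The breeds did not overlap, and Large White sow 2, the array with the high leukocyte markers, was far above the rest. The log2 difference was -0.48 ± 0.23, with a 95% interval of -1.03 to 0.07 (adjusted p = 0.993), and it was -0.28 without Large White sow 2. The part of the leukocyte markers in this difference was not tested.

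RPS27L, a paralog of the small-subunit gene RPS27 that is induced by p53 in human cells, was the only tested member of 5 paralogs listed. Its signals were 2397, 2245 and 2787 in Chinese Taihu sows, against 2989, 2944 and 3429 in Large White sows, with no overlap. The log2 difference was -0.34 ± 0.16, with a 95% interval of -0.72 to 0.05 (adjusted p = 0.993). RPS27 itself differed by -0.04 ± 0.08 on its brighter probe set. RPL15, a large-subunit protein, had signals of 10842, 11889 and 11596 in Chinese Taihu sows, against 12510, 12939 and 12185 in Large White sows. The breeds did not overlap, though the log2 difference was small, at -0.13 ± 0.08, with an interval of -0.34 to 0.07 (adjusted p = 0.993).

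The remaining members without overlap between the breeds differed by little. RPS19, a small-subunit protein whose loss causes Diamond-Blackfan anaemia in humans, was above in all Chinese Taihu sows, at 14688 to 15405 against 14249 to 14661 in Large White sows, a log2 difference of 0.07. RPL13 was at 10086 to 10864 in Chinese Taihu sows and 11063 to 11352 in Large White sows, a difference of -0.10. RPS15 was at 12461 to 12828 in Chinese Taihu sows and 12890 to 13743 in Large White sows, a difference of -0.06. The stalk protein RPLP2 was at 9346 to 9958 in Chinese Taihu sows and 10007 to 10702 in Large White sows, a difference of -0.09. The adjusted p of all 4 was 0.993.

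The other stalk proteins showed hardly any difference on their bright probe sets. RPLP0, which anchors the stalk, had signals of 15711, 16024 and 15760 in Chinese Taihu sows, against 15754, 15730 and 15405 in Large White sows, the narrowest range of the 58 members above 5000, 1.04-fold from the lowest array to the highest. Its log2 difference was 0.02, with a 95% interval of -0.15 to 0.18. RPLP1, which pairs with RPLP2 in the stalk, differed by 0.02 (95% interval -0.18 to 0.21). The dimmer probe sets of RPLP0 and RPLP1, with mean signals of 468 and 313, differed by 0.17 and -0.08, and the breeds overlapped on both.

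The small-subunit genes differed little between the breeds. On the brightest probe set of each of the 24 genes, the median log2 difference was 0.02, all 24 breed ratios were within 1.1-fold, and the 95% bounds lay between -0.31 and 0.48. The large-subunit genes had a median of 0.03, with 26 of 31 within 1.1-fold. Among the small-subunit members, 0 of 33 had an unadjusted p of at most 0.05 (limma), and 2 of 47 large-subunit members were higher. Of all tested probe sets, 1.56% were higher and 2.30% were lower, so the count of 0 does not set the small subunit apart. RPS6, the target of the S6 kinases, had signals of 11092, 10162 and 10708 in Chinese Taihu sows, against 9990, 9790 and 10782 in Large White sows, and Large White sow 3 lay above 2 of the Chinese Taihu sows. The difference was 0.06 (95% interval -0.16 to 0.29). RPSA, which also serves as a laminin receptor, was at 12284 to 13002 in Chinese Taihu sows and 11925 to 13065 in Large White sows, a difference of 0.02 (95% interval -0.19 to 0.22). RPS27A, which is made as a fusion with ubiquitin, was at 13942 to 15708 in Chinese Taihu sows and 14491 to 15554 in Large White sows, a difference of -0.00 (95% interval -0.21 to 0.20).

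RPL5 and RPL11, the large-subunit proteins that form a particle with 5S ribosomal RNA and can bind the p53 regulator MDM2, did not differ beyond the spread of the sows. RPL5 had signals of 11606, 9456 and 11416 in Chinese Taihu sows, against 9655, 9907 and 10744 in Large White sows, with Chinese Taihu sow 2 the lowest of the 6. Its log2 difference was 0.10 (95% interval -0.19 to 0.38). RPL11 was at 12286 to 13398 in Chinese Taihu sows and 12151 to 13871 in Large White sows, a difference of 0.01 (95% interval -0.21 to 0.23).

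The 5 members with the highest signals were probe sets of RPS18, RPS2, RPL13A, RPLP0 and RPS29, with mean signals of 15528 to 19142. RPS18 was at 18818 to 19754 in Chinese Taihu sows and 17555 to 20121 in Large White sows. RPS2 was at 15415 to 16685 in Chinese Taihu sows and 15619 to 17771 in Large White sows. RPL13A, often used as a reference gene, was at 15772 to 16332 in Chinese Taihu sows and 15238 to 16057 in Large White sows, and RPS29 was at 14886 to 16050 in Chinese Taihu sows and 14966 to 16225 in Large White sows. The breeds overlapped in all 5, and their log2 differences were -0.04 to 0.04. The 5 members with the lowest signals were probe sets of RPS15A, RPL26, RPL30, RPL27 and RPS12, with mean signals of 58.3 to 82.5, and the breeds overlapped in all of these too. For RPS15A, RPL26 and RPL30 no brighter member existed, whereas RPL27 and RPS12 had other members above 10000.

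At the signal limit, RPS15A was just inside, with signals of 53.2, 66.0 and 60.5 in Chinese Taihu sows and 63.2, 49.2 and 57.6 in Large White sows. Just outside was the dimmer of the RPL7 probe sets, above 50 on 2 arrays, with 29.9, 11.8 and 30.7 in Chinese Taihu sows and 66.2, 55.6 and 33.1 in Large White sows. The other 4 probe sets left out belonged to RPL9, RPL34, RPS13 and RPS25, and every gene left out in this way had another member.

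For 21 genes there were 2 or 3 tested probe sets, and these differed among themselves. The spread of the log2 difference within a gene had a median of 0.16, and the sign was mixed in 8 of the 21 genes. In 20 of 21 genes the brightest probe set gave the difference nearest to 0, the exception being RPL13A. The widest spreads were those of RPL38, RPL9, RPL23 and RPL35. RPL38 differed by 0.03 on its bright probe set and by -0.48 on the other. RPL9 differed by 0.06 and -0.41, where the dimmer probe set had signals of 294, 149 and 181 in Chinese Taihu sows and 207, 216 and 415 in Large White sows. RPL35 differed by 0.00 and -0.36, and RPL23 by -0.01, 0.37 and 0.33 on its 3 probe sets.

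Members with the largest SD over the 6 arrays were all dim, being probe sets of RPL9, RPS25, RPL13A, RPL35 and RPS27A with mean signals of 90.8 to 400. The highest array exceeded the lowest by 2.10- to 2.78-fold in these 5, and the breeds overlapped in all of them. Each of these genes had another member above 5000 whose highest array was 1.07- to 1.20-fold above its lowest, so sow-to-sow variation of this size was not seen on the bright probe sets.

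The 9 members between 1000 and 5000 included 8 whose gene also had a member above 5000, so that both could be compared within the same sows. The difference was higher on the middle probe set than on the bright one in 7 of the 8 genes, namely RPL32, RPL12, RPL23, RPL17, RPL6, RPL24 and RPS6, and lower in RPL38. For RPL32 the log2 ratio of the middle to the bright probe set was -2.19, -2.13 and -2.23 in Chinese Taihu sows, against -2.52, -2.62 and -2.40 in Large White sows. For RPL12 this ratio was -2.26, -2.17 and -2.23 in Chinese Taihu sows, against -2.63, -2.54 and -2.44 in Large White sows. The ratios did not overlap between the breeds in 6 of the 8 genes, being higher in Chinese Taihu sows for RPL32, RPL12, RPL23, RPL17 and RPL24 and lower for RPL38. They overlapped for RPL6 and RPS6. No share for other genes is given beside this count, and the signal range of the 8 genes was chosen after the values were seen. The estimates of the breed difference were unequal between the probe sets of a gene, but this inequality was not tested. Without a share for other genes, the count of 6 of 8 does not set these genes apart. The bright probe sets of these 8 genes differed by only -0.01 to 0.08.

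**Figure D4:**
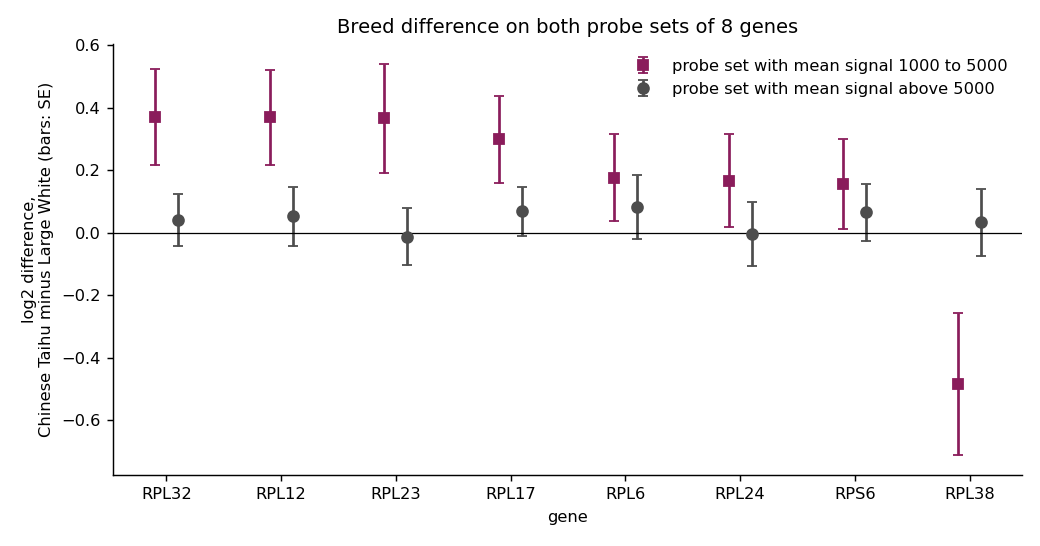
Log2 difference (Chinese Taihu minus Large White) with its SE for 8 genes with a probe set of mean signal 1000 to 5000 (purple squares) and another above 5000 (grey circles). The squares lie at 0.16 to 0.37 for 7 genes and at -0.48 for RPL38, and the circles lie between -0.01 and 0.08.

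Values of some control probe sets moved with breed as well. All 9 probe sets for bacterial and phage RNAs that are added at hybridization in fixed amounts were higher in Chinese Taihu arrays with no overlap, by 1.21- to 1.51-fold. The ratio of the 3′ to the middle probe set of GAPDH, a measure of RNA integrity, was 1.09, 1.06 and 1.04 in Chinese Taihu sows, against 1.004, 1.005 and 1.02 in Large White sows. The ratio of its 3′ to its 5′ probe set was 1.85, 1.36 and 1.73 in Chinese Taihu sows, against 1.21, 1.39 and 1.60 in Large White sows, which overlap. The part of these differences in the breed differences of the middle probe sets was not tested. Probe sets whose ID marks possible matches to related transcripts numbered 11 of the 86. Ribosomal protein genes have many processed copies in mammalian genomes, and whether such copies added to any signal was not tested.

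Across the sows, the median level of the members shifted by small amounts. The median deviation of the 86 members from their own median over the 6 arrays was 0.05, -0.02 and 0.02 on the log2 scale in Chinese Taihu sows 1 to 3, against -0.01, -0.05 and 0.02 in Large White sows 1 to 3, and with arrays scaled to a common median it turned positive in Large White sow 1 (0.054) and negative in Large White sow 3 (-0.013). The quartiles of the deviations spanned 0 in every sow except Large White sow 2 (-0.106 to -0.0046), so the members did not all move together. Chinese Taihu sow 1 held the highest value of 27 members and Large White sow 3 that of 19, while the other sows held 5 to 13 each. Large White sow 2 held the lowest value of 26 members, Chinese Taihu sow 2 that of 22 and Large White sow 1 that of 18. The breeds were thus mixed among both the high and the low sows. Within the middle range the deviation was 0.05, 0.04 and 0.06 in Chinese Taihu sows, against -0.18, -0.23 and -0.02 in Large White sows. Its median difference of 0.18 was also 0.18 without Chinese Taihu sow 1 and was 0.14 to 0.26 when each sow was left out in turn.

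**Figure D5:**
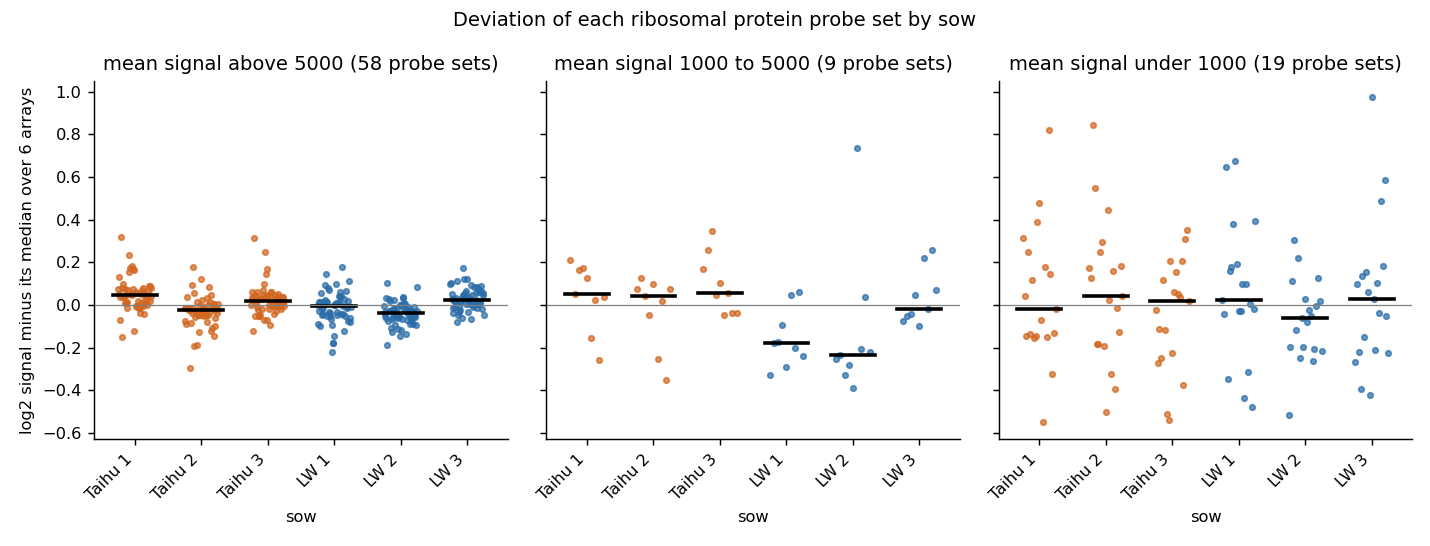
Log2 signal of each ribosomal protein probe set minus its median over the 6 arrays, by sow, for members with mean signals above 5000, of 1000 to 5000 and under 1000, with the median of each sow as a black line. Among the 58 bright members the medians lie between -0.04 and 0.05, and among the 9 middle members the medians of Chinese Taihu sows are 0.04 to 0.06 and those of Large White sows -0.23 to -0.02.

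Red blood cell markers differed in the same direction as 7 of the 9 middle members, while RPL38 and RPS27L differed in the other. Of 7 genes listed, 3 were tested (HBB, ALAS2 and AHSP), and their summed signal was 719 to 919 in Chinese Taihu sows, against 478 to 668 in Large White sows. ALAS2 and AHSP had an unadjusted p of at most 0.05 (limma), as did 1.56% of all tested probe sets in this direction. Their log2 differences were 0.74 and 1.16, with an adjusted p of 0.993. The breeds overlapped on each of the 3 genes, and Chinese Taihu sow 1 held the highest value of 2 of them. The signals were low, with a median over the 3 genes of 63.4 to 166 per array, though none was at 0 on any array. The part of blood in the values of the ribosomal protein genes was not tested.

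Other genes of the translation machinery were read in the same fit, with the brightest probe set for each gene. Of 20 further genes listed for a TOP motif in their messenger RNA, 18 were tested, with a median log2 difference of 0.12. The list is mostly translation factors but includes VIM, HNRNPA1, TPT1 and NAP1L1. The difference was above 0 for 15 of the 18 (83.3%), against 50.3% of all tested probe sets. The breeds did not overlap for 1 gene, which was higher in Chinese Taihu follicles. At a p of at most 0.05 there were 0 of 18 in either direction, against 1.56% higher and 2.30% lower of all tested probe sets. EIF3E, a subunit of the initiation factor that binds the small subunit, had signals of 6115, 4091 and 5952 in Chinese Taihu sows, against 2762, 2981 and 4784 in Large White sows, a log2 difference of 0.64 ± 0.27 (SE, adjusted p = 0.993). HNRNPA1, an RNA-binding protein, differed by 0.37, and NACA, which binds new peptides at the ribosome, by 0.36, and the breeds overlapped for all 3 genes. Chinese Taihu sow 1 held the highest value of 10 of the 18 genes and Chinese Taihu sow 3 that of 7, while Large White sow 1 held the lowest value of 10.

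Of 113 genes of ribosome assembly, 82 were tested, with a median log2 difference of -0.12, and 1 was higher and 3 were lower in Chinese Taihu follicles at p of at most 0.05 (1.22% and 3.66%). These shares by p were near those of all tested probe sets, 1.56% and 2.30%. The difference was above 0 for 24 of the 82 (29.3%), against 50.3% of all tested probe sets. The breeds did not overlap for 1 gene that was higher and 9 that were lower in Chinese Taihu follicles (1.22% and 10.98%). Of all tested probe sets, 3.98% were higher and 5.12% were lower without overlap. Whether the list differed from all tested probe sets in these shares was not tested. POLR1E, a subunit of the RNA polymerase that transcribes ribosomal RNA genes, had signals of 246, 248 and 250 in Chinese Taihu sows, against 441, 445 and 512 in Large White sows. The values within Chinese Taihu were almost equal, and the breeds were far apart, with a log2 difference of -0.91 ± 0.16 (SE, adjusted p = 0.598). NMD3, the adaptor that carries the large subunit out of the nucleus, had signals of 162, 131 and 149 in Chinese Taihu sows, against 78.0, 73.5 and 97.2 in Large White sows, a difference of 0.84 ± 0.17 (SE, adjusted p = 0.865). EXOSC7, a subunit of the RNA exosome, and GAR1, of the complex that modifies uridines in ribosomal RNA, differed by -0.62 and -0.53 (adjusted p = 0.993). None of the 82 passed the adjusted test.

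Of 8 ribosomal proteins or related genes that the symbol rule did not cover, 6 were tested. RPL7L1, a paralog of RPL7, was at 1749 to 1997 in Chinese Taihu sows and 2165 to 2394 in Large White sows, with no overlap and a log2 difference of -0.33 ± 0.15 (SE, adjusted p = 0.993). RACK1, a scaffold protein on the small subunit, was at 14474 to 14918 in Chinese Taihu sows and 15005 to 15173 in Large White sows, a difference of -0.04. RPL36AL, a paralog of RPL36A, differed by 0.14 with overlap between the breeds.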

How the data were processed

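Each of 6 Affymetrix porcine arrays held follicle RNA of 1 sow. The deposited values are signal intensities that the authors computed with MAS5 (version 2.3.1), brought to a target of 500 per array and then normalized with the invariant set method of dChip. The arrays were grouped by the breed in the labels. Of 24123 probe sets, 188 controls were left out. A floor of 1 was used before log2. Testing covered the 19196 probe sets that exceeded 50 on 3 arrays or more, with limma 3.58.1 in R 4.3.3 (variance trend, 2-sided, Benjamini-Hochberg adjustment). The procedure was tested on simulated data. Other values were computed in Python 3.11.15 with pandas 2.3.3 and numpy 2.4.6, and drawn with matplotlib 3.10.9. With 3 sows per breed, the smallest p of an exact permutation test is 0.1. The limma p-values rest on the spread between sows of a breed, with the variance of each probe set drawn towards that of probe sets of like signal. They do not cover the difference between the farms. For the 58 members above 5000, the median SE was 0.09 and the median SD over the 6 arrays was 0.06. The other probe sets above 5000 had a median SD of 0.23. The limma intervals and p-values of bright members thus reflect the spread of other probe sets as well as their own.

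In the annotation of the array, 10099 probe sets have 1 gene symbol, 198 several and 13826 none. All 59 member symbols matched RefSeq by gene ID, and 0 differed. Members and gene lists were chosen with earlier results of these data known. Named were the 12 members with the smallest p, the 5 brightest, the 5 dimmest, the 5 with the largest SD, the 4 genes whose probe sets differed most, the stalk genes and paralog, RPL5, RPL11, RPS6, RPSA and RPS27A, and the 3 genes with the smallest p of each other list. RPL24, GAR1 and the further members without overlap were named after their values were seen. Alternatives changed the normalization, the filter, the floor, the variance model, the test, the pairing and the probe sets, and left out each sow in turn.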

Additional observations from a re-analysis of the deposited data

How the results depend on the processing

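No ribosomal protein probe set passed the adjusted test in any setting. The count of 2 higher members at an unadjusted p of at most 0.05 became 0 with quantile normalization and with a constant prior variance, and 1 with median scaling, with signals above 100, with the brightest probe set per gene and with the replicate block. It became 6 with array weights (2.75% of all tested probe sets) and 6 with the methods' t-test (1.81%), and it was 0 to 2 when each sow was left out. The count of 0 lower members became 2 without a filter, where 5 more probe sets entered, 1 with array weights (4.04%) and 3 with the methods' t-test (2.59%), and it was 0 to 1 when each sow was left out. The cause of these changes was not tested, other than the added probe sets. The median difference of the members was 0.00 to 0.04 when each sow was left out and 0.04 with quantile normalization, and that of the middle range was 0.14 to 0.26 when each sow was left out. With median scaling the deviation was 0.0064 in Chinese Taihu sow 1, 0.054 in Large White sow 1 and -0.013 in Large White sow 3. For the 12 members with the smallest p, 150 of the values under other settings kept their direction and side of p of 0.05, 14 came under it, 16 went over it and 0 changed direction. Their lowest adjusted p was 0.708. The replicate numbers did not pair the sows, since same-numbered arrays correlated at -0.17, -0.14 and 0.27 in their deviations from the breed means. Most named members are not the brightest of their gene, so for single members that setting was not run. With 3 sows per breed, small differences could not be detected.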

Other observations

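The proteins of the mitochondrial ribosome, which translates the messenger RNAs of the mitochondrial genome, varied from sow to sow. The 58 tested genes had a median deviation of -0.07, 0.22 and -0.33 on the log2 scale in Chinese Taihu sows 1 to 3, against 0.43, -0.03 and -0.06 in Large White sows 1 to 3. Large White sow 1 held the highest value of 43 of the 58 genes, and Chinese Taihu sow 3 held the lowest value of 40. The median breed difference was -0.19, and none of the 58 passed the adjusted test. The difference was above 0 for 9 of the 58 (15.5%), against 50.3% of all tested probe sets. At an unadjusted p of at most 0.05 (limma) there were 0 of 58, against 1.56% higher and 2.30% lower of all tested probe sets. The breeds did not overlap for 4 of the 58, all lower in Chinese Taihu sows (6.90%, against 5.12% of all tested probe sets). MRPS36 differed by 0.67, MRPL14 by -0.45 and MRPL11 by -0.42, each with an adjusted p of 0.993.

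Of 21 genes of the mTOR pathway that controls ribosome production, 10 were tested. Their median difference was -0.11, and 0 of 10 had an unadjusted p of at most 0.05 (limma), against 1.56% higher and 2.30% lower of all tested probe sets. The difference was above 0 for 2 of the 10 (20%), against 50.3% of all tested probe sets. The breeds did not overlap for 1 gene, which was lower in Chinese Taihu follicles. The kinases AKT2 and AKT1 differed by -0.42 and -0.24, and AKT1S1, an inhibitory subunit of mTOR complex 1, by -0.56, each with an adjusted p of 0.993 (limma).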
